A study of Homo sapiens with 16 samples.

Results

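The genes described here encode amino acid transporters of the plasma membrane and the lysosome. The rule goes by gene name and takes the protein-coding genes of the SLC1A, SLC3A, SLC7A, SLC36A, SLC38A and SLC43A families in GENCODE 29; it uses no measured value, though it was set with earlier results of these data known. The rule gave 40 genes of the 35075 whose counts were summed, and 35 of them passed the low-count filter that 16787 genes passed in all. RNA sequencing had been done on HEK293 cells, a human embryonic kidney line, to ask how far an expression profile tells what a gene variant does. Every group overexpressed 1 construct: RNF43 with the frameshift variant G659fs, RNF43 with the frameshift variant R117fs, wild-type RNF43 (WT), or green fluorescent protein (GFP), which was the control. RNF43 is a ubiquitin ligase in the membrane that removes Frizzled, the Wnt receptor, and thereby lowers Wnt signalling. There were 16 libraries, 4 per group. The sources used here do not give the vector, the way it was delivered or whether a group was 1 clone. The labels do not say that the libraries came from separate cultures, so the p-values measure the spread between these libraries, which may be technical.

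Cells take up amino acids through families of carriers with different substrates and driving forces. The SLC3A genes encode heavy chains, which pair with light chains of the SLC7 family. Most of these pairs are exchangers that let one amino acid in for another that leaves. The SLC1A and SLC38A carriers use the sodium gradient or exchange neutral amino acids, and SLC36A carriers use protons. When amino acids run short, the kinase GCN2 slows translation and the transcription factor ATF4 is made, which switches on genes of amino acid synthesis and uptake. The leucine and glutamine that enter the cell also feed the signal that activates the growth kinase mTORC1 at the lysosome. RNA levels do not show how much of a carrier sits in the membrane.

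Total estimated counts ran from 20364357 to 46779570 per library. RNF43 stood at 35239 to 47175 CPM (counts scaled to a common library size, here with TMM factors) in G659fs, 30191 to 94568 in R117fs, 42146 to 59768 in WT and 13.2 to 50.3 in GFP, so all 12 construct libraries lay above all GFP libraries. All 7 HEK293 markers checked (VIM, KRT8, KRT18, NEFL, NEFM, PAX2 and LIN28B) were present. Their summed levels were 1252 to 1358 CPM in G659fs, 1156 to 1335 in R117fs, 1346 to 1456 in WT and 1006 to 1151 in GFP. Most of each sum was VIM, with group means from 680 CPM in GFP to 850 CPM in WT. The markers did not move together: in G659fs against GFP, KRT8 was lower (log2 fold change -0.44 ± 0.12, SE). NEFL and NEFM were higher there (0.50 ± 0.09 and 1.02 ± 0.17). The 14 markers of blood, endothelium, fibroblast, liver and proximal tubule summed to 80.6 to 98.02 CPM in G659fs, 64.2 to 92.7 in R117fs, 53.8 to 68.3 in WT and 71.3 to 83.8 in GFP, most of it COL1A1 and LRP2, while PTPRC, CD3E, CDH5 and SLC34A1 averaged under 1 CPM in every group. The part of these shifts in the transporter results was not tested, and in bulk RNA fewer cells of a type and less RNA per cell cannot be told apart. R117fs replicate 4 stood apart from the other R117fs libraries: the SD of its genes' log2 deviations was 0.58, against 0.27 to 0.41 in the other 15 libraries. R117fs replicate 1 also stood apart, with 30191 CPM of RNF43 beside 69368 to 94568 in R117fs replicates 2 to 4. The chi-square per degree of freedom between 2 libraries (higher is less alike) was 72.4 to 83.2 for replicate 1 with the other R117fs libraries. It was 54.8 and 64.0 for replicate 4 with replicates 3 and 2, and 5.62 between replicates 2 and 3. For several results in which R117fs replicate 4 weighs, a value without that library is also given.

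Compared per length, with the deposited TPM (counts per transcript length, scaled to a common total) summed per gene, the transporters spanned several orders of magnitude. In GFP cells 5 genes averaged over 100 TPM, 14 lay between 10 and 100 TPM, 9 between 1 and 10 TPM and 12 under 1 TPM. SLC3A2, the heavy chain of most plasma membrane exchangers, was the most abundant in GFP cells, with 365 ± 7.99 TPM (mean ± SD, n = 4). It was followed by SLC1A5, the glutamine exchanger ASCT2, with 236 ± 10.4 TPM, and by SLC7A5, the leucine and large neutral amino acid exchanger LAT1, with 175 ± 16.2 TPM. The sodium-coupled glutamine carriers SLC38A2 and SLC38A1 had 150.0 ± 4.45 and 108 ± 6.56 TPM, and SLC7A1, the main carrier of arginine and lysine, had 69.8 ± 4.62 TPM. Each of these 6 levels was apart from the next lower one in all 4 GFP libraries. Below them SLC38A10, SLC7A6, SLC43A1, SLC7A11, SLC38A9, SLC36A4 and SLC1A3 ran from 50.1 to 30.2 TPM in GFP, and each overlapped with its neighbour in that order. At the low end the kidney and brain carriers SLC3A1, SLC36A2 and SLC1A2 averaged under 1 TPM. SLC1A7, SLC7A4, SLC7A13, SLC38A8 and SLC38A11, each also under 1 TPM, were too low to test.

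**Figure D1:**
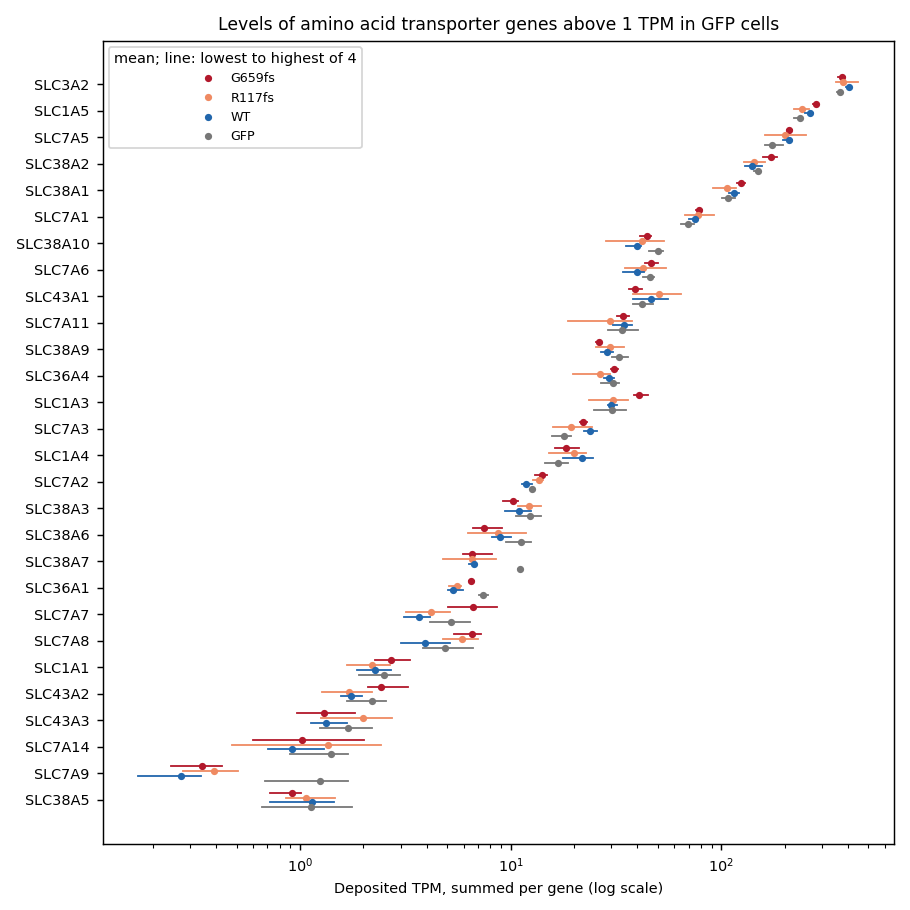
Deposited TPM summed per gene (log scale) for the 28 transporter genes above 1 TPM in GFP cells; points are group means and lines run from the lowest to the highest of 4 libraries. SLC3A2 leads at 374 TPM in G659fs, 380 in R117fs, 404 in WT and 365 in GFP.

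The light chains that pair with SLC3A2 (SLC7A5, SLC7A6, SLC7A7, SLC7A8, SLC7A10 and SLC7A11) summed to 304 ± 6.88 TPM in G659fs, 285 ± 45.4 in R117fs, 292 ± 9.32 in WT and 265 ± 20.6 in GFP (SD, n = 4). Set against SLC3A2, that was a ratio of 0.814 ± 0.033 in G659fs, 0.747 ± 0.069 in R117fs, 0.724 ± 0.013 in WT and 0.724 ± 0.0471 in GFP. Every G659fs ratio (0.768 to 0.846) was above every WT ratio (0.713 to 0.737) and overlapped with R117fs and GFP. SLC7A5 made up most of the light chain RNA, with 68.9% in G659fs, 70.5% in R117fs, 71.8% in WT and 65.9% in GFP.

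Set against GFP, the 3 RNF43 constructs moved different numbers of transporter genes, and the 3 comparisons share the same GFP libraries. In G659fs 15 of the 35 tested transporter genes passed an edgeR adjusted p of 0.05, 12 of them higher and 3 lower, or 42.9%, where 25.4% of all 16787 tested genes passed (11.6% higher, 13.8% lower). In R117fs 3 of 35 passed, 0 higher and 3 lower, or 8.57% beside 15.6% of all genes (7.04% higher, 8.57% lower). In WT 9 of 35 passed, 6 higher and 3 lower, or 25.7% beside 21.5% of all genes (9.85% higher, 11.6% lower), a share near the background. The median log2 fold change of the 35 genes was 0.21 in G659fs, 0.02 in R117fs and 0.00 in WT, while the median over all tested genes was 0.00, -0.01 and 0.00 for the same comparisons. Groups did not overlap for 17 transporter genes between G659fs and GFP (37.9% of all genes did not), for 3 between R117fs and GFP (16.5%) and for 10 between WT and GFP (33.8%). The absence of higher calls in R117fs depended on the test. DESeq2 called 2 transporter genes higher among 6 called (21.2% of all genes called in either direction), and limma voom 4 among 8 (30.4%). In edgeR 8 were higher at an unadjusted p under 0.05, a cut for which the share of all genes was not counted. With 1 library left out, the R117fs count of 3 became 5 without R117fs replicate 1 (16.9% of all genes), 6 without R117fs replicate 2 (15.8%) and 7 without R117fs replicate 3 (15.9%), so the share of transporter genes in R117fs lay below or above that of all genes depending on the library left out. The WT count of 9 became 5 without GFP replicate 4 (13.1% of all genes). How far the G659fs share exceeded that of all genes also depended on the setting. In G659fs limma voom called 19 of 35, where 47.4% of all genes passed, and 12 passed with effective length as an offset (20.8%).

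**Figure D2:**
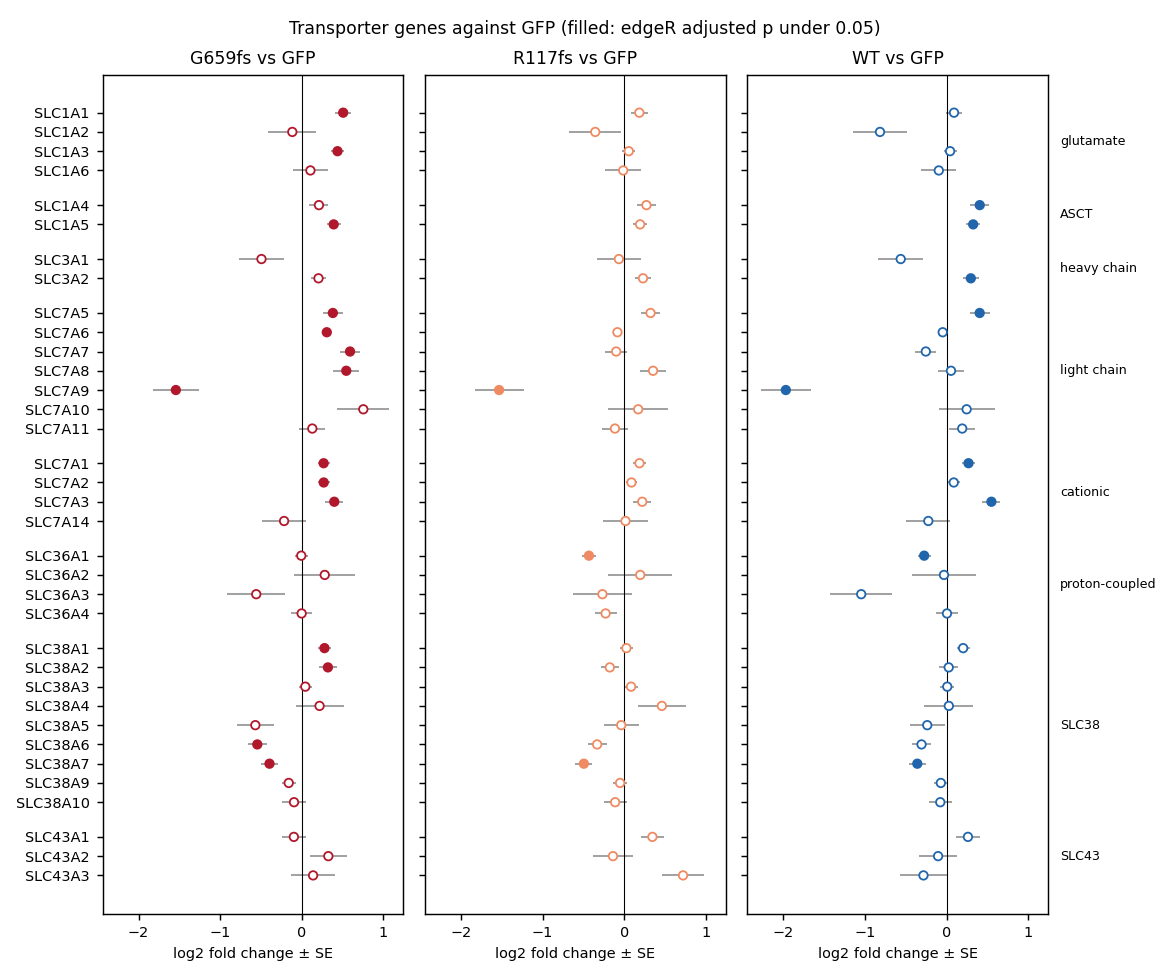
Log2 fold change ± SE against GFP for the 35 tested transporter genes, grouped by role, in G659fs, R117fs and WT; filled points passed an edgeR adjusted p of 0.05. Filled points to the right of 0 number 12 in G659fs, 0 in R117fs and 6 in WT, and SLC7A9 lies farthest left in each panel.

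Between constructs, G659fs differed from R117fs in 8 of 35 transporter genes (7 higher, 1 lower; 22.9% beside 14.4% of all genes, 6.35% higher and 8.02% lower), and from WT in 4 (all higher; 11.4% beside 5.68%, 2.32% higher and 3.35% lower). R117fs differed from WT in 1 (higher; 2.86% beside 8.11%, 4.5% higher and 3.62% lower). The groups did not overlap for 7 transporter genes between G659fs and R117fs (18.1% of all genes), for 8 between G659fs and WT (26.8%) and for 2 between R117fs and WT (15.4%). No transporter gene was called lower in G659fs than in WT by edgeR or DESeq2. Limma voom called 4 lower among 12 called (35.9% of all genes called in either direction). None was called lower in R117fs than in WT by edgeR. There DESeq2 called 1 lower among 2 called (12.1% of all genes) and limma voom 10 among 11 (29.9%). At an unadjusted p under 0.05 in edgeR, 1 was lower in G659fs and 2 in R117fs than in WT. The share of all genes at that cut was not counted. Without R117fs replicate 4 the calls were 9 between G659fs and R117fs (23.5% of all genes), 8 between G659fs and WT (20.7%) and 3 between R117fs and WT (9.48%). Leaving out G659fs replicate 2 or 3 gave 5 calls between G659fs and R117fs (8.19% and 7.79% of all genes) and 2 between G659fs and WT (0.589% and 0.685%). The same counts were found without WT replicate 4 against R117fs (12.4%) and without WT replicate 1 against WT (0.885%). Between R117fs and WT there were 4 calls without R117fs replicate 1 (15.4% of all genes), and 2 without GFP replicate 2 or 3, WT replicate 3 or any 1 G659fs library (4.11% to 6.78%).

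SLC7A6 and SLC7A7 are light chains that export arginine or lysine in exchange for neutral amino acids and sodium, and both were higher in G659fs than in each other group. SLC7A6 had 138, 143, 150.3 and 140.1 CPM in G659fs, 114, 112, 107 and 104 in R117fs, 107, 113, 114 and 112 in WT and 115, 117, 118 and 112 in GFP. The 4 G659fs libraries lay above the other 12, which overlapped. The log2 fold change was 0.31 ± 0.05 against GFP, 0.36 ± 0.05 against WT and 0.39 ± 0.05 against R117fs (SE; edgeR adjusted p = 0.000485, 0.00274 and 0.000162). These calls rest on counts that are not corrected for transcript length. With effective length as an offset the fold changes were 0.13, 0.19 and 0.16 (edgeR adjusted p = 0.441, 0.358 and 0.393), and the deposited TPM averaged 46.4 in G659fs, 42.7 in R117fs, 39.9 in WT and 45.9 in GFP. Exons of SLC7A6 overlap SLC7A6OS on the opposite strand, and without a strand setting their reads cannot be told apart; SLC7A6OS itself had a log2 fold change of -0.24 ± 0.08 in G659fs against GFP.

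Mutations of SLC7A7 cause lysinuric protein intolerance. It had 5.40, 5.95, 7.71 and 5.999 CPM in G659fs, 3.40, 4.14, 4.55 and 3.65 in R117fs, 3.14, 3.84, 3.57 and 3.41 in WT and 4.53, 4.31, 4.04 and 3.83 in GFP. Again all 4 G659fs libraries were above all others. The gene was 1.80-fold higher in G659fs than in WT, a log2 fold change of 0.85 ± 0.12 (edgeR adjusted p = 0.00265), and 1.61-fold higher than in R117fs (edgeR adjusted p = 0.00124). Against GFP the log2 fold change was 0.59 ± 0.12 (edgeR adjusted p = 0.00176), and 0.50 with the length offset, where the edgeR adjusted p was 0.065. Counted on its protein-coding transcripts alone, the gene had 4.53 ± 0.289 CPM in G659fs, 3.15 ± 0.505 in R117fs, 2.33 ± 0.656 in WT and 2.57 ± 0.502 in GFP.

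**Figure D3:**
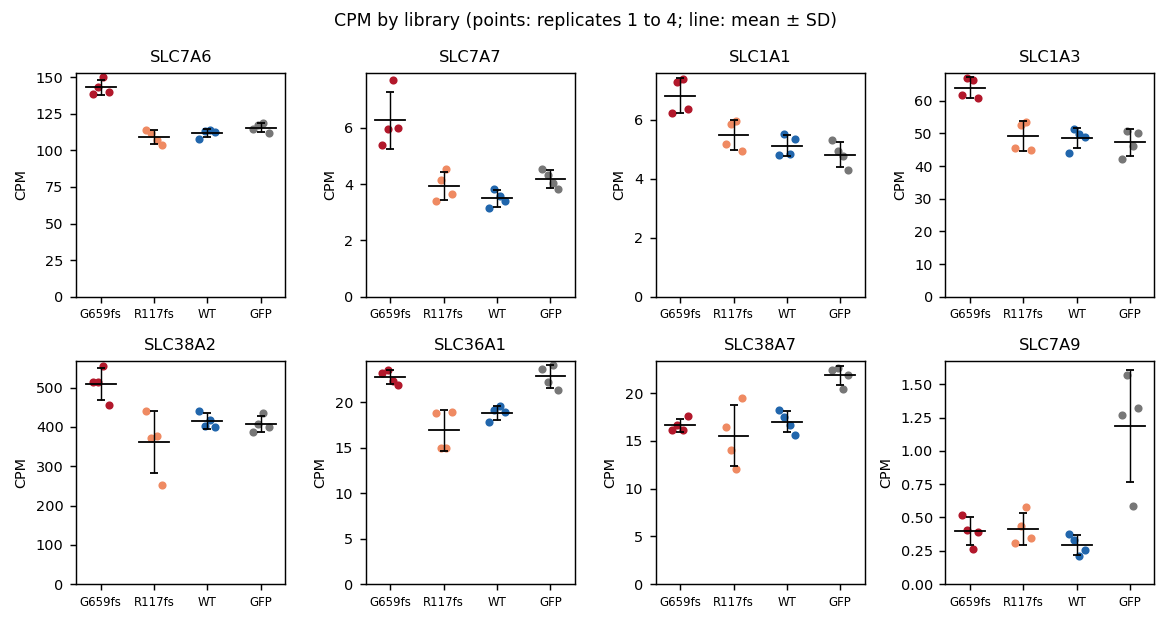
CPM (TMM-scaled) in each of the 16 libraries for 8 transporter genes; points are replicates 1 to 4 from left to right within a group, with the group mean ± SD. SLC7A6, SLC7A7, SLC1A1, SLC1A3 and SLC38A2 are highest in all 4 G659fs libraries, SLC38A7 and SLC7A9 are highest in the 4 GFP libraries, and SLC36A1 is low in R117fs and WT.

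Of 7 tested light chains, 5 passed against GFP in G659fs (4 higher, 1 lower), 1 in R117fs (lower) and 2 in WT (1 higher, 1 lower), or 71.4%, 14.3% and 28.6% beside 25.4%, 15.6% and 21.5% of all genes. SLC7A8, the neutral amino acid exchanger LAT2, was among them and rose in G659fs with a log2 fold change of 0.55 ± 0.16 against GFP (edgeR adjusted p = 0.0177). Its means were 14.4 ± 2.07 CPM in G659fs, 12.9 ± 2.72 in R117fs, 10.3 ± 1.93 in WT and 9.94 ± 1.47 in GFP, and the call was lost without G659fs replicate 2, GFP replicate 1 or GFP replicate 3 (edgeR adjusted p up to 0.0737). SLC7A10, a carrier of small neutral amino acids, averaged under 1 CPM in every group and passed in no comparison.

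SLC7A9, which with SLC3A1 reabsorbs cystine and basic amino acids in the kidney tubule, fell against GFP in all 3 constructs. It had 0.521, 0.403, 0.264 and 0.392 CPM in G659fs, 0.307, 0.434, 0.576 and 0.346 in R117fs, 0.377, 0.328, 0.208 and 0.258 in WT and 1.27, 1.57, 0.585 and 1.32 in GFP. GFP replicate 3 was low for its group but still above every construct library. Log2 fold changes were -1.54 ± 0.29 in G659fs, -1.53 ± 0.30 in R117fs and -1.97 ± 0.30 in WT (SE; edgeR adjusted p = 0.000859, 0.00252 and 0.000238). The gene was barely expressed, with 6.74 to 42.7 estimated counts per library, and most of these were assigned to transcripts annotated for nonsense-mediated decay: 87.0% in G659fs, 67.4% in R117fs, 87.2% in WT and 62.1% in GFP. Its partner SLC3A1, the heavy chain of that pair, averaged under 1 CPM in every group and passed in no comparison.

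Among the transporter genes, 7 are known targets of ATF4 or of the amino acid response: SLC3A2, SLC7A5, SLC7A11, SLC1A4, SLC1A5, SLC7A1 and SLC38A2. Against GFP 4 of the 7 were called higher in G659fs (SLC1A5, SLC7A1, SLC7A5 and SLC38A2), 0 in R117fs and 5 in WT (SLC3A2, SLC7A5, SLC1A4, SLC1A5 and SLC7A1), and no gene of the 7 was called lower in any of the 3. Of all genes 11.6% were called higher in G659fs, 7.04% in R117fs and 9.85% in WT. Their median log2 fold change was 0.27 in G659fs, 0.20 in R117fs and 0.30 in WT, and without R117fs replicate 4 the R117fs median was 0.084. For R117fs DESeq2 called 1 of the 7 higher and limma voom 0, where they called 21.2% and 30.4% of all genes in either direction. In edgeR 5 of the 7 were higher at an unadjusted p under 0.05, and the share of all genes at that cut was not counted. Leaving out 1 library moved these counts, and with them the share of all genes called. In WT the 5 calls became 1 without GFP replicate 2 or GFP replicate 4, 2 without WT replicate 1 and 3 without WT replicate 4 (13.1% to 16.9% of all genes), and in G659fs the 4 calls became 2 without GFP replicate 2, GFP replicate 4 or G659fs replicate 1 (18% to 21.1%). In R117fs they numbered 3 without R117fs replicate 3, 2 without R117fs replicate 2 and 1 without GFP replicate 1 (14.6% to 15.9%). Between constructs 1 of the 7 passed: SLC38A2, higher in G659fs than in R117fs, a comparison in which 14.4% of all genes passed.

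For 4 of these genes there is a RefSeq promoter window (250 bases before to 50 after an annotated start, build GRCh38.p14) that holds TGATGNAA, the core of the composite C/EBP and ATF site that ATF4 reads. The windows are shown with the match in capitals, each in the direction of its gene. In SLC1A4 and SLC3A2 the match lies on the opposite strand and reads as its complement. The SLC1A4 window is chr2:64989149-64989448, plus strand; the SLC7A1 window is chr13:29595639-29595938, minus strand; the SLC1A5 window is chr19:46784765-46785064, minus strand; the SLC3A2 window is chr11:62881449-62881748, plus strand.
SLC1A4: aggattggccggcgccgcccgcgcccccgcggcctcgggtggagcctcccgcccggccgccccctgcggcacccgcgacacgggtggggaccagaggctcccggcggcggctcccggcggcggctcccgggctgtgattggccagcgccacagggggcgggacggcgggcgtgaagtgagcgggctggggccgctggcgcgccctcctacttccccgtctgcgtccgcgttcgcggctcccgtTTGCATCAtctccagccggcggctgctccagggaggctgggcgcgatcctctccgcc
SLC7A1: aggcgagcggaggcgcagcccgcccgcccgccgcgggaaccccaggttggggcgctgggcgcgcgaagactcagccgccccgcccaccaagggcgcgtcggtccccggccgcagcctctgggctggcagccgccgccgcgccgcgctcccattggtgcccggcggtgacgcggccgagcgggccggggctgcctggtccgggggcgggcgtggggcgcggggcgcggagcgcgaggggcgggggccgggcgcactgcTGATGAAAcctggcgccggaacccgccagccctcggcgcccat
SLC1A5: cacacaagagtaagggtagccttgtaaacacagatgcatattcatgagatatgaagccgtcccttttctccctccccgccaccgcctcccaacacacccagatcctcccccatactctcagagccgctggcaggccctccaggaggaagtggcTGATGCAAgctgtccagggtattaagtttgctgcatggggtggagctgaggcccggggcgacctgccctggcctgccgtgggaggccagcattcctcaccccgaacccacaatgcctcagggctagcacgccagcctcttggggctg
SLC3A2: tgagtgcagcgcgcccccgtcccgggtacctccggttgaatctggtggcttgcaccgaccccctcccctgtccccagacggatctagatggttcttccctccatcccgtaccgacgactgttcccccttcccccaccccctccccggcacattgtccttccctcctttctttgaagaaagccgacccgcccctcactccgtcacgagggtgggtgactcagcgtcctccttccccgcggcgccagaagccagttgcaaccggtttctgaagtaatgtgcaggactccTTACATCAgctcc

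The match began at -7 in SLC1A4, at 8 in SLC7A1, at -97 in SLC1A5 and at 38 in SLC3A2, counted from the annotated start. Transcripts that start in the window carried a median of 92.1% of the gene's counts for SLC1A4, 99.9% for SLC7A1, 16.6% for SLC1A5 and 6.73% for SLC3A2, so for the last 2 genes most counts came from other starts. Searched on both strands, TGATGNAA stood in 6 of the 53 windows of 31 transporter genes (11.3%) and in 1270 of all 35116 windows (3.62%). The other 2 matches were in windows of SLC1A3 and SLC38A1, where no quantified transcript starts. A match describes the letters in a window and is not evidence that a factor binds there. In the main SLC7A5 and SLC38A2 windows TGATGNAA was not found. Windows for SLC7A11, SLC7A2, SLC7A3, SLC7A4, SLC7A13, SLC1A2, SLC3A1, SLC38A3 and SLC43A3 were not used here.

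SLC7A5 had 665, 625, 611 and 653 CPM in G659fs, 654, 508, 483 and 808 in R117fs, 666, 621, 652 and 656 in WT and 569, 464, 494 and 434 in GFP. Every G659fs and WT library lay above every GFP library, while R117fs replicates 2 and 3 fell within the GFP range and R117fs replicate 4 was the highest of all 16. Log2 fold changes were 0.38 ± 0.12 in G659fs, 0.32 ± 0.12 in R117fs and 0.40 ± 0.12 in WT (edgeR adjusted p = 0.0271, 0.0779 and 0.0239). Without R117fs replicate 4 the R117fs value was 0.16 (edgeR adjusted p = 0.241). The calls were lost without GFP replicate 2 or GFP replicate 4, in G659fs also without G659fs replicate 1 or 4 and in WT also without WT replicate 1 or 4, with edgeR adjusted p up to 0.0854 in G659fs and 0.0871 in WT.

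SLC3A2 had 513, 469.6, 458 and 501 CPM in G659fs, 468, 436, 427 and 644 in R117fs, 513, 492, 528 and 533 in WT and 451, 416, 416 and 401 in GFP. All G659fs and all WT libraries were above all GFP libraries, and R117fs replicate 4 was the highest of the 16. The gene rose in WT, with a log2 fold change of 0.30 ± 0.10 (edgeR adjusted p = 0.0387), a call lost without any 1 of the 4 WT libraries or of GFP replicates 2, 3 and 4 (adjusted p up to 0.110). In G659fs the value was 0.21 ± 0.10 (edgeR adjusted p = 0.135) and in R117fs 0.23 ± 0.10 (0.12), or 0.08 without R117fs replicate 4.

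SLC7A11, the light chain xCT that imports cystine in exchange for glutamate, did not pass in any comparison. It had 265, 225, 244 and 233 CPM in G659fs, 266, 224, 198 and 128 in R117fs, 276, 222, 264 and 246 in WT and 229, 199, 268 and 187 in GFP, and all 4 groups overlapped. Log2 fold changes against GFP were 0.13 ± 0.16 in G659fs, -0.11 ± 0.16 in R117fs and 0.19 ± 0.16 in WT (edgeR adjusted p = 0.589, 0.68 and 0.422). An interval of 2 SE around the WT value ran from -0.13 to 0.51, which takes in the rises measured for SLC7A5 and SLC3A2. Without R117fs replicate 4 the R117fs value was 0.06.

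SLC1A4 and SLC1A5 exchange neutral amino acids, serine and glutamine among them. SLC1A5 had 454, 455, 435 and 468 CPM in G659fs, 406, 344, 347 and 485 in R117fs, 417, 441, 428 and 443 in WT and 376, 355, 322 and 328 in GFP. The G659fs and WT libraries were all above the GFP libraries, while R117fs replicates 2 and 3 fell within the GFP range. SLC1A5 rose by 0.39 ± 0.09 on the log2 scale in G659fs and by 0.32 ± 0.09 in WT (SE; edgeR adjusted p = 0.00346 and 0.0135), and both calls held under all 26 alternative settings. In R117fs the value was 0.20 ± 0.09 (edgeR adjusted p = 0.141), or 0.08 ± 0.06 (edgeR adjusted p = 0.361) without R117fs replicate 4. Without that library R117fs was lower than WT, with a log2 fold change of -0.24 ± 0.06 (edgeR adjusted p = 0.0172).

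SLC1A4 had 57.8, 50.1, 50.1 and 57.4 CPM in G659fs, 63.9, 53.3, 43.7 and 63.2 in R117fs, 70.1, 50.4, 63.3 and 62.5 in WT and 51.3, 44.8, 48.3 and 41.4 in GFP. WT replicate 2 lay within the GFP range and the other 3 WT libraries above it. It rose in WT with a log2 fold change of 0.40 ± 0.12 (edgeR adjusted p = 0.0184), a call lost when GFP replicate 2, GFP replicate 4 or WT replicate 1 was left out (adjusted p up to 0.0741). In G659fs and R117fs it did not pass, at 0.21 ± 0.12 and 0.27 ± 0.12 (edgeR adjusted p = 0.197 and 0.122).

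**Figure D4:**
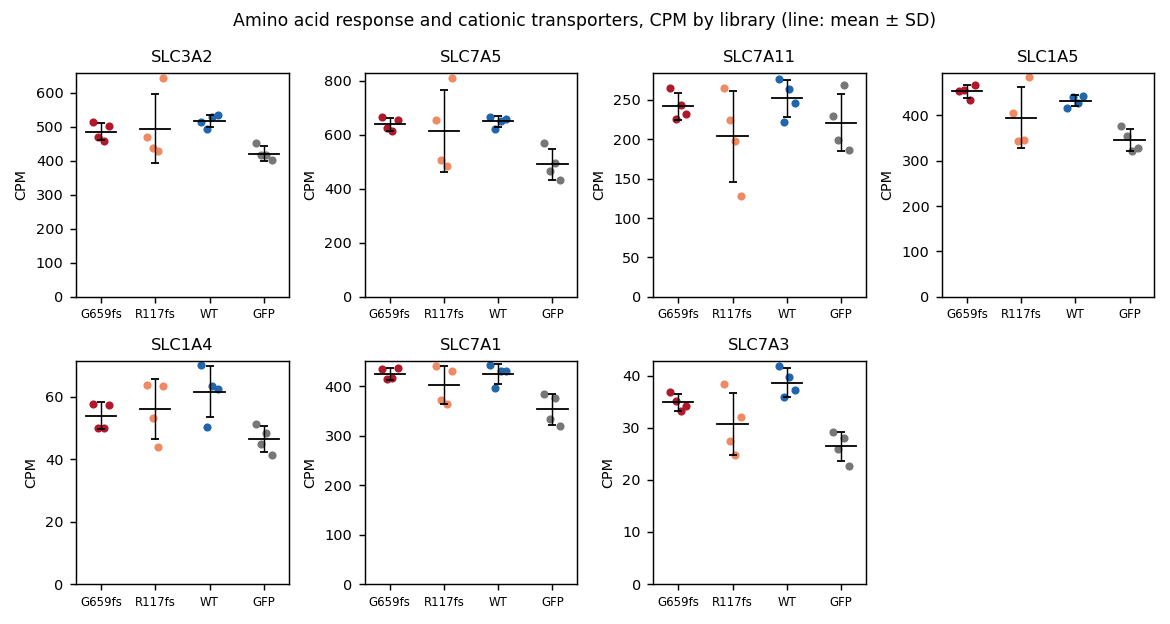
CPM (TMM-scaled) in each of the 16 libraries for 7 transporter genes of the amino acid response and of cationic transport; points are replicates 1 to 4 from left to right within a group, with the group mean ± SD. R117fs replicate 4 is the highest R117fs point for SLC3A2 (644 CPM), SLC7A5 (808 CPM) and SLC1A5 (485 CPM) and the lowest for SLC7A11 (128 CPM).

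The cationic amino acid transporters carry arginine, lysine and ornithine without a heavy chain. Of 4 tested, 3 were called higher than in GFP in G659fs and 2 in WT, beside 11.6% and 9.85% of all genes. SLC7A1 had 436, 414, 416 and 436 CPM in G659fs, 441, 373, 365 and 430.1 in R117fs, 443, 396, 431 and 431 in WT and 384, 333, 376 and 319 in GFP. Both G659fs and WT lay wholly above GFP, and R117fs overlapped with all 3 other groups. The log2 fold change was 0.27 ± 0.07 in G659fs, 0.19 ± 0.07 in R117fs and 0.27 ± 0.07 in WT (edgeR adjusted p = 0.0127, 0.0923 and 0.0151). The WT call was lost without GFP replicate 2, without GFP replicate 4 and with the length offset (adjusted p up to 0.0673).

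SLC7A3, a cationic carrier of brain and early embryo, had 36.9, 35.1, 33.1 and 34.2 CPM in G659fs, 38.4, 27.4, 24.8 and 32.0 in R117fs, 41.9, 35.8, 39.7 and 37.2 in WT and 29.1, 25.8, 28.1 and 22.7 in GFP. G659fs and WT did not overlap with GFP, whereas R117fs replicates 2 and 3 fell inside the GFP range. SLC7A3 was 1.46-fold higher in WT, a log2 fold change of 0.55 ± 0.11 (edgeR adjusted p = 0.00186) that held under all 26 alternatives. In G659fs it was 0.40 ± 0.11 (0.0131; 0.0519 without GFP replicate 4), and in R117fs 0.22 ± 0.11 (0.192).

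SLC7A2, a cationic carrier of liver and macrophages, rose in G659fs against GFP, with a log2 fold change of 0.27 ± 0.07 (edgeR adjusted p = 0.0112), beside 0.09 ± 0.07 in R117fs and 0.09 ± 0.07 in WT. The difference of G659fs from R117fs was 0.18 ± 0.07 and from WT 0.18 ± 0.07 (edgeR adjusted p = 0.102 and 0.137), and neither passed. Without R117fs replicate 4, whose 55.5 CPM were below the 70.0 to 73.4 of the other R117fs libraries, R117fs also passed against GFP (0.17 ± 0.04, edgeR adjusted p = 0.00991), and G659fs passed against WT (0.18 ± 0.04, 0.00457). SLC7A14, a lysosomal relative, averaged under 1 CPM in every group and passed nowhere.

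The SLC1A glutamate transporters take up glutamate and aspartate with sodium. Of 4 tested, 2 passed in all 3 comparisons of G659fs with the other groups, where 14.4% of all genes passed against R117fs, 5.68% against WT and 25.4% against GFP. SLC1A3 (EAAT1) had 61.8, 66.9, 66.4 and 60.7 CPM in G659fs, 45.4, 52.6, 53.6 and 44.8 in R117fs, 44.1, 51.4, 49.95 and 48.9 in WT and 42.0, 50.7, 46.0 and 50.2 in GFP. All 4 G659fs libraries were above the other 12, whose groups overlapped. It was 1.36-fold higher in G659fs than in GFP, and the log2 fold change was 0.44 ± 0.08 against GFP, 0.40 ± 0.08 against WT and 0.38 ± 0.08 against R117fs (edgeR adjusted p = 0.000681, 0.0106 and 0.00393). The difference from WT did not pass with the length offset (0.0623) or without G659fs replicate 2, G659fs replicate 3 or WT replicate 1 (0.0538 to 0.0594).

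SLC1A1 (EAAT3), which also carries cysteine, had 6.24, 7.30, 7.38 and 6.36 CPM in G659fs, 5.17, 5.86, 5.96 and 4.93 in R117fs, 4.81, 5.51, 4.83 and 5.35 in WT and 5.32, 4.93, 4.76 and 4.28 in GFP. As for SLC1A3, the 4 G659fs libraries were the highest. Its log2 fold change in G659fs was 0.51 ± 0.10 against GFP, 0.42 ± 0.10 against WT and 0.32 ± 0.10 against R117fs (edgeR adjusted p = 0.00131, 0.0203 and 0.035). With the length offset no difference passed (0.27 against GFP, edgeR adjusted p = 0.308). The call against WT was lost without G659fs replicate 2 or 3 or WT replicate 1 or 3 (adjusted p up to 0.0947), and the call against R117fs without G659fs replicate 2 or 3, R117fs replicate 1 or WT replicate 4 (up to 0.214 over all settings). SLC1A2 and SLC1A6, carriers of astrocytes and Purkinje cells, averaged under 2 CPM and passed in no comparison of the edgeR fit to all 16 libraries. For SLC1A2 in WT against GFP, 2 of 25 alternatives passed.

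Among the sodium-coupled neutral amino acid transporters and their relatives, 9 of 11 genes were tested. Against GFP 4 passed in G659fs (2 higher, 2 lower), 1 in R117fs (lower) and 1 in WT (lower), or 44.4%, 11.1% and 11.1% beside 25.4%, 15.6% and 21.5% of all genes. SLC38A2, the glutamine and alanine carrier that responds to amino acid starvation, had 514, 515, 554 and 457 CPM in G659fs, 442, 372, 378 and 252 in R117fs, 442, 402, 418 and 399 in WT and 388, 409, 436 and 401 in GFP. The G659fs libraries were the 4 highest and R117fs replicate 4 was by far the lowest. Against R117fs the log2 fold change was 0.50 ± 0.11 (edgeR adjusted p = 0.00768), lost when those 8 libraries were fitted alone (0.073). That call held without R117fs replicate 4, but R117fs replicates 1 to 3 averaged 397 CPM, beside 361 over all 4. Against GFP the log2 fold change was 0.32 ± 0.11 (0.046), a call that held in 13 of 26 alternatives and was lost without any 1 of 12 libraries, the 4 GFP, the 4 WT, G659fs replicates 1 to 3 and R117fs replicate 2 (adjusted p up to 0.127). R117fs and WT stood at -0.18 ± 0.11 and 0.02 ± 0.11 against GFP, and R117fs at -0.038 ± 0.07 (edgeR adjusted p = 0.737) without R117fs replicate 4.

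SLC38A1, a glutamine carrier of brain and dividing cells, had 693, 642, 656 and 631 CPM in G659fs, 635, 573, 542 and 453 in R117fs, 643, 584, 638 and 621 in WT and 551, 519, 581 and 511 in GFP. G659fs and WT were wholly above GFP. It passed in G659fs against GFP (0.28 ± 0.08, edgeR adjusted p = 0.0161; up to 0.0582 without GFP replicate 2 or 4) but not in WT (0.20 ± 0.08, 0.0802). Its difference between G659fs and R117fs (0.25 ± 0.08, 0.0417) held in 11 of 26 alternatives and was lost without any 1 of 13 libraries. The difference held without GFP replicate 3, R117fs replicate 1 or R117fs replicate 4. R117fs replicates 1 to 3 averaged 583 CPM, beside 550 over all 4.

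SLC38A7, a glutamine exporter of the lysosome, fell in all 3 constructs. It had 16.1, 16.7, 16.2 and 17.6 CPM in G659fs, 16.4, 14.1, 12.1 and 19.5 in R117fs, 18.2, 17.5, 16.7 and 15.6 in WT and 22.4, 22.7, 20.4 and 21.9 in GFP. Every GFP library was above every construct library. Log2 fold changes were -0.39 ± 0.10 in G659fs, -0.49 ± 0.10 in R117fs and -0.36 ± 0.10 in WT (SE; edgeR adjusted p = 0.00924, 0.00438 and 0.0182). The WT call was lost without WT replicate 4 (0.0579) and the R117fs call with those 8 libraries alone (0.0672).

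SLC38A6, a member of the family whose substrates are less well known, had 5.47, 5.06, 4.98 and 4.95 CPM in G659fs, 5.85, 7.05, 6.07 and 4.30 in R117fs, 6.16, 5.71, 6.498 and 5.67 in WT and 7.45, 8.42, 7.33 and 6.60 in GFP. G659fs and WT were both wholly below GFP, and R117fs overlapped with it. The fall passed in G659fs, at -0.54 ± 0.12 (edgeR adjusted p = 0.00248), but not in R117fs (-0.33 ± 0.12, 0.0627) or WT (-0.31 ± 0.11, 0.0619). The gene shares exon sequence with TRMT5 on the opposite strand, whose own value in G659fs was -0.11 ± 0.07. SLC38A9, the arginine sensor of the lysosome that signals to mTORC1, averaged 32.2 ± 1.86 CPM in G659fs, 34.6 ± 4.02 in R117fs, 34.1 ± 2.41 in WT and 35.9 ± 2.99 in GFP and passed in no comparison. Nor did SLC38A3, SLC38A4, SLC38A5 or SLC38A10.

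The proton-coupled transporters of the SLC36 family export small neutral amino acids from the lysosome or take them up in the gut. SLC36A1, the lysosomal member linked to mTORC1 activation, had 23.2, 23.6, 22.3 and 21.9 CPM in G659fs, 18.8, 15.03, 14.97 and 19.0 in R117fs, 17.8, 19.1, 19.6 and 19.0 in WT and 23.6, 22.3, 24.1 and 21.4 in GFP. R117fs and WT lay wholly below GFP, and the 4 G659fs libraries lay within the GFP range. It fell in R117fs, with a log2 fold change of -0.43 ± 0.08, and in WT, with -0.28 ± 0.08 (edgeR adjusted p = 0.0022 and 0.0219). In G659fs the value against GFP was -0.01 ± 0.08 (0.969), and G659fs was higher than R117fs by 0.43 ± 0.08 (edgeR adjusted p = 0.00243; 0.0611 with the length offset). The difference from WT, 0.27 ± 0.08, just missed (0.0552) and passed without R117fs replicate 4 (0.00986); all 16 libraries share 1 estimate of the spread. The WT fall was lost without GFP replicate 3 or WT replicate 1 (up to 0.0576), and the R117fs fall when those 8 libraries were fitted alone (0.0534). SLC36A2, SLC36A3 and SLC36A4 passed in no comparison, and all SLC36A3 counts were on a transcript annotated with a retained intron. In WT against GFP the SLC36A3 value (-1.05, edgeR adjusted p = 0.0597) passed in 5 of 24 alternatives.

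The SLC43 genes encode carriers of large neutral amino acids (SLC43A1 and SLC43A2) and, for SLC43A3, a carrier of purine bases. No SLC43 gene passed against GFP in the edgeR fit to all 16 libraries, while limma voom called SLC43A3 higher in R117fs and SLC43A1 higher in WT. The SLC43A3 value in R117fs against GFP (0.72, edgeR adjusted p = 0.0682) passed in 6 of 26 alternatives. SLC43A3 was 2.01-fold higher in R117fs than in WT, with 1.14, 1.82, 2.38 and 2.24 CPM in R117fs and 0.752, 0.940, 1.03 and 0.806 CPM in WT (log2 fold change 1.01 ± 0.26, edgeR adjusted p = 0.0241). The 2 groups did not overlap, but the fold change was 0.44 (0.376) with the length offset, and the call was lost with those 8 libraries alone and without any 1 of WT replicates 1, 2 and 4 and R117fs replicates 2 and 3 (up to 0.0646). SLC43A1 was lower in G659fs than in R117fs: it had 57.3, 51.2, 50.1 and 50.7 CPM in G659fs and 78.1, 62.1, 53.3 and 90.6 CPM in R117fs. The groups overlapped, the log2 fold change was -0.44 ± 0.14 (edgeR adjusted p = 0.046), and the call held in 12 of 26 alternatives; it was lost without any 1 of the 4 G659fs libraries, R117fs replicates 1 and 4, WT replicates 3 and 4 or GFP replicates 2 and 3 (adjusted p up to 0.141). SLC43A2 passed in no comparison.

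Some well expressed transporters passed in no comparison. SLC38A10, a large relative of the glutamine carriers, averaged 84.3 ± 3.90 CPM in G659fs, 83.3 ± 24.0 in R117fs, 85.2 ± 7.30 in WT and 89.9 ± 8.84 in GFP. SLC36A4, a carrier of proline and tryptophan, averaged 66.9 ± 2.98 CPM in G659fs, 56.9 ± 15.03 in R117fs, 67.2 ± 1.81 in WT and 67.0 ± 4.76 in GFP, and its lowest value of 34.7 CPM was in R117fs replicate 4. Against GFP the interval of 2 SE around the G659fs value ran from -0.38 to 0.19 for SLC38A10 and from -0.27 to 0.26 for SLC36A4 (log2 scale). Among the rare ones, SLC38A5 was lower in all 4 G659fs libraries (0.453, 0.597, 0.346 and 0.477 CPM) than in the 4 GFP libraries (0.646, 0.699, 0.645 and 0.819 CPM) but did not pass (-0.57 ± 0.22, edgeR adjusted p = 0.0711).

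R117fs replicate 4 departed from the other 3 R117fs libraries along the GC content of the transcripts. Across the 20 transporter genes of at least 10 CPM, the log2 ratio of this library to the mean of R117fs replicates 1 to 3 rose with GC content (Spearman 0.95, across genes, which are not independent replicates). All 7 genes below 50% GC were lower in it and all 7 above 55% GC were higher. SLC7A11, with 35.4% GC, stood at -0.84 and SLC36A4, with 35.8% GC, at -0.89, while SLC7A5, with 61.0% GC, stood at 0.56 and SLC3A2, with 57.7% GC, at 0.54. Without this library the R117fs calls against GFP were 4 of 35, 1 higher (SLC7A2) and 3 lower (21.7% of all genes passed). With the GC trend removed from all libraries they were 7, 4 higher and 3 lower, where 27.7% of all genes passed.

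**Figure D5:**
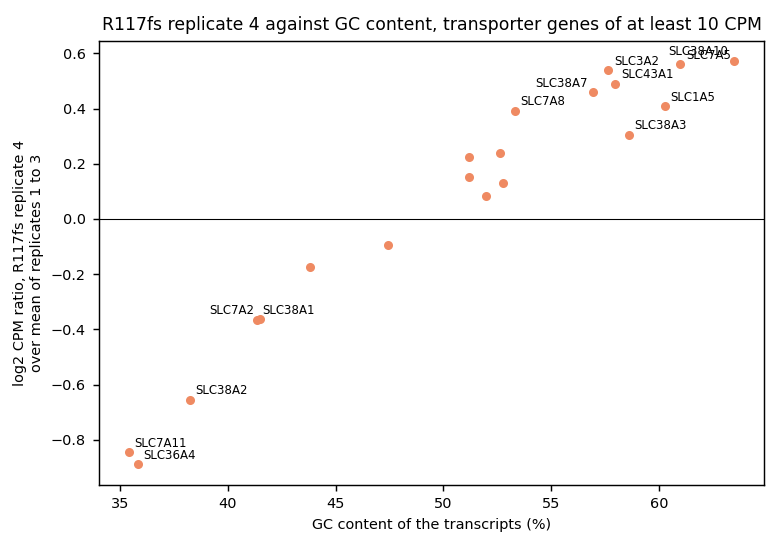
Log2 ratio of CPM in R117fs replicate 4 to the mean of R117fs replicates 1 to 3, plotted against the GC content of the transcripts (%), for the 20 transporter genes of at least 10 CPM; 1 point is 1 gene. The points run from -0.89 for SLC36A4 at 35.8% GC to 0.57 for SLC38A10 at 63.5% GC.

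Genes of the same pathways that are not transporters were read from the same fit. Of 21 genes downstream or upstream of ATF4, 6 passed against GFP in G659fs (5 higher, 1 lower), 4 in R117fs (all higher) and 10 in WT (all higher), with median log2 fold changes of 0.06, 0.16 and 0.26. Those shares, 28.6%, 19.0% and 47.6%, stand beside 25.4%, 15.6% and 21.5% of all genes. Without R117fs replicate 4, 10 passed in G659fs (8 higher, 2 lower), 5 in R117fs and 13 in WT, where 39.4%, 21.7% and 36% of all genes passed. ASNS, which makes asparagine, averaged 654 ± 11.2 CPM in G659fs, 678 ± 23.1 in WT and 500.2 ± 15.6 in GFP (log2 fold change 0.39 ± 0.08 in G659fs and 0.44 ± 0.08 in WT, edgeR adjusted p = 0.00138 and 0.000642). The cystathionine-cleaving enzyme CTH, which makes cysteine, rose by 0.53 ± 0.09 in WT, and PYCR1, which makes proline, rose by 0.53 ± 0.09 in G659fs and 0.53 ± 0.09 in R117fs (edgeR adjusted p = 0.00033, 0.000464 and 0.000979). DDIT3, the stress factor CHOP, was lower in G659fs than in R117fs and WT: it averaged 46.6 ± 6.49 CPM in G659fs, 96.8 ± 11.8 in R117fs, 73.8 ± 13.9 in WT and 63.3 ± 14.5 in GFP (log2 fold change -1.05 ± 0.16 and -0.66 ± 0.15, edgeR adjusted p = 0.000345 and 0.0219). R117fs was itself higher than GFP for DDIT3 (0.61 ± 0.15, edgeR adjusted p = 0.0128). TRIB3 was also higher in R117fs than in GFP (0.82 ± 0.21, edgeR adjusted p = 0.0152), though those groups overlapped.

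A list of 35 genes held amino acid sensors and other regulators of mTORC1, TSC1, TSC2 and RHEB among them. It also held the mTORC1 genes MTOR, RPTOR and MLST8. Of the 35, 8 passed against GFP in G659fs (2 higher, 6 lower), 14 in R117fs (4 higher, 10 lower) and 10 in WT (3 higher, 7 lower). Those shares, 22.9%, 40% and 28.6%, stand beside 25.4%, 15.6% and 21.5% of all genes. The median log2 fold changes were -0.09, -0.09 and -0.05. With R117fs replicate 4 left out, 17 passed in G659fs, 16 in R117fs and 18 in WT, where 39.4%, 21.7% and 36% of all genes passed. FLCN, which activates the RagC and RagD GTPases at the lysosome, fell in all 3, averaging 61.2 ± 0.518 CPM in G659fs, 68.8 ± 8.79 in R117fs, 57.9 ± 0.816 in WT and 88.4 ± 4.68 in GFP (log2 fold change -0.53 ± 0.07, -0.36 ± 0.07 and -0.61 ± 0.07, edgeR adjusted p = 7.09e-05, 0.00308 and 2.88e-05). TSC1, which holds mTORC1 in check, fell by 0.31 ± 0.06 in G659fs and 0.38 ± 0.06 in WT (edgeR adjusted p = 0.00101 and 0.00024). Of 10 genes that use cystine or make glutathione, 2 passed in G659fs, 1 in R117fs and 3 in WT, all higher, shares of 20%, 10% and 30% near those of all genes. These were 6, 2 and 6 without R117fs replicate 4, the last with 1 lower, where 39.4%, 21.7% and 36% of all genes passed. GSS, glutathione synthetase, was the one gene among them that passed in all 3, at 0.20 ± 0.06, 0.36 ± 0.06 and 0.37 ± 0.06 (edgeR adjusted p = 0.0277, 0.00101 and 0.000514).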

How the data were processed

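RNA was sequenced from HEK293 cells, 4 libraries in each of 4 groups, with an NEBNext preparation per the labels. Per the submitters' processing notes, the reads were quantified per transcript by kallisto 0.45.1 against GRCh38. Which annotation release, run options and strand setting were used is not given in the sources used here. Per the file headers, each deposited table holds estimated counts and TPM (counts divided by effective length and scaled to a common total) with annotated and effective transcript lengths. Those lengths were used as deposited by the authors.

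Of 178136 transcripts, 162453 (91.2%) matched GENCODE 29, and unmatched ones held 1.90% to 2.22% of the counts. Estimated counts were summed per gene and rounded. In R 4.3.3, edgeR 4.0.16 fitted its quasi-likelihood model to all 16 libraries after filterByExpr (minimum count 10) and TMM scaling, with 1 coefficient per group, 6 contrasts and Benjamini-Hochberg adjustment over 16787 genes; calls had an adjusted p under 0.05. Where no other setting is named, whether a gene passed refers to this fit. No 2 libraries of the same group agreed within sampling noise (lowest chi-square per degree of freedom 3.55), and the procedure was tested on simulated data.

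The transporter genes and gene lists were chosen with earlier results of these data known. Values in every library were given for the 7 ATF4-linked genes and the called genes with the smallest adjusted p (8 per comparison with GFP, 5 between constructs), and for a few more called genes chosen after their values were seen; list genes were named from the 3 smallest adjusted p values per list and comparison. Alternatives were DESeq2 1.42.0, limma 3.58.1 voom with sample weights, DESeq2 size factors, other low-count filters, the 2 compared groups alone, a replicate block, an effective length offset, a GC trend removed by a spline with 5 degrees of freedom, and each library left out. Promoter windows came from RefSeq (GRCh38.p14).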

Additional observations from a re-analysis of the deposited data

Results flagged for a closer look

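Within-group outliers were sought for 35 transporter genes in 4 groups, 140 sets of 4 libraries, of which chance would pick about 1 in 20, and 2 were found. SLC43A1 had 57.3 CPM in G659fs replicate 1, a gap to the next library that took up most of the group's range, while the other 3 G659fs libraries had 51.2, 50.1 and 50.7 CPM. SLC43A2 had 5.58 CPM in GFP replicate 4, where the other 3 GFP libraries had 3.43, 3.51 and 3.23 CPM.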

How the results depend on the processing

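The share of all genes called also moved under most settings, and is given in parentheses beside each count of called transporter genes. Against GFP, where edgeR called 3 in R117fs (15.6%), there were 6 with DESeq2 (21.2%), 8 with limma voom (30.4%), 1 with those 8 libraries alone (3.67%), 7 with the GC trend removed (27.7%) and 3 to 7 with 1 library left out (8.56% to 21.7%). Against GFP the WT count of 9 (21.5%) was 15 with voom (42.8%) and 5 to 12 with 1 library left out (13.1% to 36%). The G659fs count of 15 (25.4%) was 11 to 16 with 1 library left out (18% to 39.4%). G659fs against GFP also gave 19 with voom (47.4%), 17 with 8 libraries (43.1%) and 17 with the GC trend removed (40.6%). With the length offset its count was 12, 9 of them higher (20.8%). R117fs against WT (1 call, 8.11%) gave 2 with DESeq2 (12.1%), 11 with voom (29.9%), 2 with no filter (3.74%) and 0 with 8 libraries (0.938%). This comparison also gave 0 with the length offset (5.08%), 3 with the GC trend removed (17.6%) and 1 to 4 with 1 library left out (3.69% to 15.4%). G659fs against WT (4 calls, 5.68%) gave 12 with voom (35.9%), 9 with 8 libraries (28.5%), 2 with the length offset (2.61%), 8 with the GC trend removed (19.7%) and 2 to 8 with 1 library left out (0.589% to 20.7%). G659fs against R117fs (8 calls, 14.4%) gave 17 with voom (41.1%), 5 with no filter (6.78%), 4 with 8 libraries (4.86%), 5 with the length offset (10.3%) and 5 to 9 with 1 library left out (7.79% to 23.5%). The cause of these shifts was not tested.

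Whether replicate numbers pair the libraries cannot be told from these values. Over 24 pairs the correlation of same-numbered deviations ran from -0.06 to 0.16, with 5 over 0.1, and 17 of 48 checks found a library closest to its own number. The share of all genes called was higher with a replicate block than without it in all 6 contrasts. With a replicate block the counts were 15 for G659fs (27.2%), 6 for R117fs (17.3%) and 11 for WT (23.5%) against GFP, 2 for R117fs against WT (11%), and in G659fs 8 against R117fs (16.3%) and 5 against WT (8%). With the block and the GC trend removed, the counts against GFP were 16 for G659fs (44% of all genes), 12 for R117fs (31%) and 13 for WT (41.3%). Between constructs, R117fs against WT gave 7 (22.1%), G659fs against WT 9 (24.3%) and G659fs against R117fs 13 (33.1%).

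Of 1687 alternative fold changes of 65 named results, 1558 kept their direction and side of the threshold, 62 were no longer past it, 44 were newly past it and 23 changed sign. Those 23 belong to 8 results, each uncalled in edgeR, and 1 was past the threshold. SLC7A11 in R117fs against GFP became 0.053 with voom, 0.093 with the GC trend removed, 0.096 with the block as well and 0.056 without R117fs replicate 4 (-0.26 to 0.056 with 1 library left out). SLC38A2 against GFP became 0.0074 in R117fs with the length offset, and in WT ran from -0.0097 to 0.054 with 1 library left out. SLC3A2 in G659fs against R117fs became 0.13 with voom (limma adjusted p = 0.0315, the one past the threshold), 0.0060 with the length offset, 0.039 after GC correction, 0.039 when the block was added (-0.088 to 0.13 with 1 library left out). SLC7A1 in G659fs against WT became -0.018 with voom (-0.030 to 0.026 with 1 library left out). SLC1A4 in G659fs against R117fs became 0.021 with voom (-0.16 to 0.0031 with 1 library left out). With 1 library left out, SLC7A5 ran from -0.24 to 0.017 in R117fs against WT and from -0.040 to 0.22 in G659fs against R117fs. Low genes such as SLC7A9 and SLC43A3 rest on few counts per library.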

Other observations

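Amino acid transporters outside these families were read from the same fit. Of 18 tested genes of 24 listed, 5 passed against GFP in G659fs (2 higher, 3 lower; 27.8%), 4 in R117fs (all lower; 22.2%) and 5 in WT (2 higher, 3 lower; 27.8%), beside 25.4%, 15.6% and 21.5% of all genes. SLC6A6, the taurine transporter, had 81.5, 105, 104 and 93.4 CPM in G659fs, 55.9, 60.2, 73.8 and 68.9 in R117fs, 40.7, 70.3, 53.2 and 56.7 in WT and 53.9, 65.3, 62.0 and 69.5 in GFP. All 4 G659fs libraries were above the other 12. Its log2 fold change in G659fs was 0.61 ± 0.13 against GFP, 0.80 ± 0.13 against WT and 0.57 ± 0.13 against R117fs (edgeR adjusted p = 0.0028, 0.00494 and 0.00835). SLC6A15, a carrier of branched-chain amino acids and proline, had 133, 132, 131 and 123 CPM in G659fs and 94.8, 95.8, 105 and 92.5 in GFP, without overlap (log2 fold change 0.42 ± 0.09, edgeR adjusted p = 0.0026).

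SLC25A44, which brings branched-chain amino acids into mitochondria, fell in all 3 constructs, with 50.4, 55.9, 54.6 and 50.2 CPM in G659fs, 46.4, 45.8, 47.6 and 51.5 in R117fs, 44.7, 47.0, 46.3 and 50.1 in WT and 59.2, 66.2, 59.5 and 67.7 in GFP. Every GFP library was above every construct library, and the log2 fold changes were -0.26 ± 0.07, -0.40 ± 0.07 and -0.43 ± 0.07 (edgeR adjusted p = 0.00886, 0.000751 and 0.000279). SLC25A18, a mitochondrial glutamate carrier, averaged 0.873 ± 0.159 CPM in G659fs, 0.802 ± 0.155 in R117fs, 0.360 ± 0.157 in WT and 1.45 ± 0.280 in GFP. The G659fs mean too was below that of GFP. In that comparison SLC25A18 was not among the 3 list genes with the smallest adjusted p. SLC25A18 was lower than in GFP in WT (log2 fold change -1.93 ± 0.25) and in R117fs (-0.80 ± 0.22), without overlap (edgeR adjusted p = 4.78e-05 and 0.021). Compared with WT it was higher in G659fs (1.21 ± 0.26) and in R117fs (1.13 ± 0.28; edgeR adjusted p = 0.017 and 0.0204).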
